A study of Mus musculus with 13 samples.

Results

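The genes described here are ligands of the transforming growth factor-beta (TGF-beta) superfamily and a receptor for the bone morphogenetic proteins (BMPs). They are Tgfb1, Tgfb2, Tgfb3, Bmp2, Bmp3, Bmp4, Bmp7, Inhba, Inhbb and Bmpr1b, which were taken by their symbols from a choice made with earlier results of these data known, and all 10 were found among the 15213 genes of the table. RNA was sequenced from 10 mammary tumors, labelled MtTA Teto-TSG101wt, and from the mammary glands of 3 wild-type FVB females. The tumors came from 6 double transgenic MMTV-tTA TetO-Tsg101 females on the FVB/N background, of which some gave more than 1 tumor. Tumor 1, tumor 4 and tumor 7 each came from a different mouse, tumors 2 and 3 shared a mouse, tumors 5 and 6 shared another, and tumors 8, 9 and 10 came from a single female. In these mice the MMTV promoter drives the transactivator tTA in the mammary epithelium, which in turn expresses full-length mouse Tsg101 with a luciferase reporter. The labels give neither the ages of the mice nor the reproductive stage of the glands. The glands were whole tissue, with fat and stroma, and the tumors were adenosquamous carcinomas, so that the groups differed in cell composition as well as in genotype.

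Ligands of this superfamily are secreted dimers that bring together type I and type II serine/threonine kinase receptors. The TGF-betas and activins signal mainly through SMAD2 and SMAD3, and the BMPs mainly through SMAD1, SMAD5 and SMAD9, with SMAD4 as the common partner. In the mammary gland, TGF-beta is known for restraining the growth of ducts, BMP signals for early bud formation and for the basal and luminal lineages, and activins and inhibins for duct elongation and alveolar development. Activins are dimers of the beta subunits that Inhba and Inhbb encode, whereas inhibins pair a beta subunit with the alpha subunit of Inha and act against activins.

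Levels are given in normalized cpm, the deposited values of reads scaled to the size of the library. The libraries held between 6176269 and 16835397 reads in the tumors, and 23889042, 21407069 and 11672487 reads in glands 1, 2 and 3. A gene without a read could still have been present at up to 3 reads, equal to 0.141 to 0.683 normalized cpm in a tumor and 0.128 to 0.366 in a gland, when only counting error is considered. The ribosomal precursor Rn45s took between 0.456% and 27.4% of a tumor library, the most in tumor 9, and 0.296% to 4.35% of a gland library. Tsg101 itself averaged 66.5 ± 15.5 normalized cpm in the 10 tumors (SD) and 53.2 ± 7.68 in the 3 glands (limma log2 fold change 0.30, adjusted p = 0.296). It therefore gave no check of which libraries carried the transgene. The libraries were told apart by squamous markers, which summed to 488 to 3707 normalized cpm across tumors and to 17.3 to 50.3 across glands. Which libraries were sequenced at which of the 2 facilities named in the labels is not stated, so that no batch could be assigned.

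Tumors and glands were compared with limma on log2(normalized cpm + 1). A gene was called when it changed by more than 2-fold, that is by more than 1 on the log2 scale, at a false discovery rate below 0.05 over all genes tested. A gene had to exceed 5 normalized cpm in at least 7 of the 13 libraries to be tested, and 11795 genes did. A fold change on this scale understates the change of genes with low levels. The test takes the 10 tumors as separate samples although some share a mouse, and its p-values measure the spread between these samples.

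Of the 10 genes, 7 passed this filter and 4 of them were called. Inhbb, Bmp7 and Bmp4 were higher in the tumors and Tgfb2 was lower. Over all genes past the filter, 17.2% were called, 10.2% higher and 6.99% lower. Bmp2 and Bmp4 passed the filter through the tumors alone, because their level stayed under the limit in every gland, and Bmp7 was over it in 1 gland. The filter left out Bmp3, Inhba and Bmpr1b, and these were therefore tested in the fit without a filter. In that fit 7 of the 10 genes were called, 4 higher and 3 lower, beside 20.6% of all 15213 genes, 10.5% higher and 10.1% lower. In 6 of the 10 genes the tumor and gland values did not overlap, which was the case for 21.7% of all genes, and 4 of these 6 were among the genes past the filter, of which 19.2% showed no overlap.

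**Figure D1:**
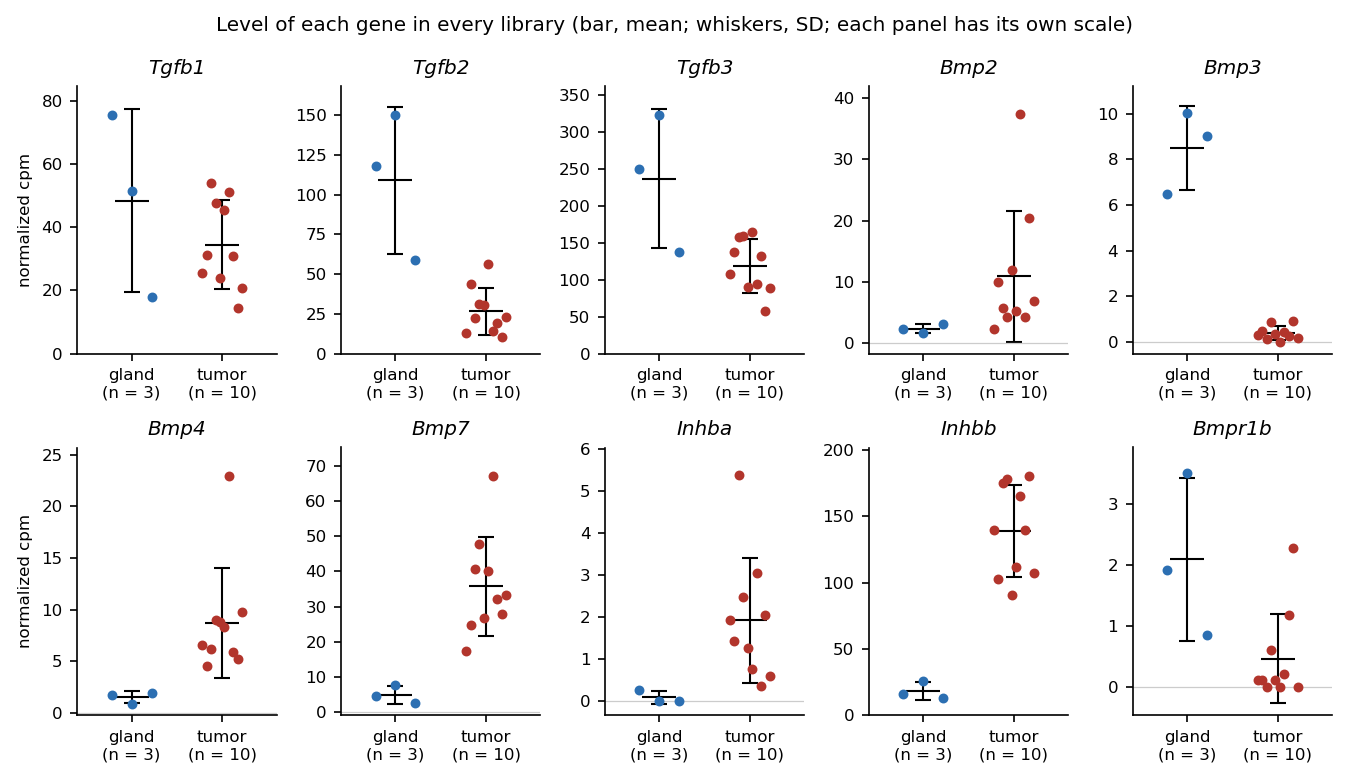
Level of each of the 10 genes in normalized cpm (vertical axes, each with its own scale) in the 3 glands and the 10 tumors, with a dot for each library, a bar for the mean and whiskers for the SD. The tumors lie above the glands without overlap for Bmp4, Bmp7, Inhba and Inhbb and below them for Tgfb2 and Bmp3.

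The bases before the start site are shown for the genes whose calls are described first, Inhbb and Bmp4 among those higher in the tumors and Tgfb2 among those lower. They are the 250 bases upstream of the RefSeq start in the build GRCm38.p6 (mm10), written 5′ to 3′ on the strand of the gene. Capitals mark CAGAC, a motif bound by SMAD proteins, or GGGCGG, the GC box, on either strand. The stretch of Inhbb is chr1:119422249-119422498 and that of Bmp4 is chr14:46390670-46390919, both on the minus strand and outside any gene annotated by GENCODE M21. The stretch of Tgfb2 is chr1:186705990-186706239 on the minus strand, and 167 of its bases lie over an exon of the antisense gene Gm29491. It precedes a start site that lies inside the span RefSeq gives for Tgfb2, not at its outer end, whereas those of Inhbb and Bmp4 adjoin the end of the gene.
Inhbb: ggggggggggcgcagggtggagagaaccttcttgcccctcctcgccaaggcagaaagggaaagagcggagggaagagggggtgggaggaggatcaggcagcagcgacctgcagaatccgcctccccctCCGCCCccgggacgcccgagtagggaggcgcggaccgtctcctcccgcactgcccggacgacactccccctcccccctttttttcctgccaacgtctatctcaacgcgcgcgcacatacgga
Bmp4: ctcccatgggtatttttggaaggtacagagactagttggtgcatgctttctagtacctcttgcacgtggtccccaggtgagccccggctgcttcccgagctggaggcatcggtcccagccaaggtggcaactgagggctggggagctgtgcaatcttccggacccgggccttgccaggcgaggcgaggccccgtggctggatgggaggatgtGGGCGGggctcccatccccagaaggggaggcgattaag
Tgfb2: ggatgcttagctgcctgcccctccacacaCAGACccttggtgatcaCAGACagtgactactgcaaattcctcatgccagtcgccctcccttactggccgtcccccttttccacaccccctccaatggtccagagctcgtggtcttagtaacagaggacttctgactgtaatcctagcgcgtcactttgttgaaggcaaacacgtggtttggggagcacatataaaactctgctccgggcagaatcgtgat
The Inhbb stretch held 21 CpG dinucleotides with a GC content of 68%, and a single GC box 122 bases before the start. That of Bmp4 held 11 CpG and a GC box 38 bases before the start. In contrast, the Tgfb2 stretch held 8 CpG, no GC box, a TATAAA sequence, and CAGAC at 221 and 204 bases before the start. Among 32851 mouse promoters of the same length, 42.2% held CAGAC, 32.7% held GGGCGG and 12.4% held TATAAA on either strand, and the median promoter had 6 CpG. A match of this kind describes the letters and shows no binding. RefSeq promoter entries were found for 6 of the 10 genes.

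Tgfb2 (Entrez 21808, chr1:186622787-186709697) encodes a ligand that needs the coreceptor betaglycan to bind its type II receptor well. Its level was 118, 150.3 and 59.0 normalized cpm in glands 1, 2 and 3, and in the tumors it ranged from 10.7 to 56.4 with a median of 22.6. All tumors lay below the lowest gland, although tumor 6 came close to it. With mean levels of 26.4 ± 14.6 (SD, n = 10) for tumors and 109 ± 46.3 (SD, n = 3) for glands, Tgfb2 was 4.12-fold lower in the tumors (limma log2 fold change -2.07, standard error 0.43, adjusted p = 0.00231). The antisense gene Gm29491 overlaps its exons, and since it is not stated whether reads were counted by strand, reads of the pair could not be separated.

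Tgfb1 (Entrez 21803, chr7:25687002-25705077), the isoform known for its action on immune cells and stroma, did not differ between the groups by the test. Its level was 75.7, 51.7 and 17.9 normalized cpm in glands 1, 2 and 3 and ranged from 14.3 to 54.2 in the tumors, with a median of 31.0. The spread between the glands covered nearly all tumor values. The log2 fold change was -0.37 (standard error 0.42, limma adjusted p = 0.562), and it changed sign to 0.06 when gland 1 was left out and was -0.95 (adjusted p = 0.0877) when gland 3 was.

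Tgfb3 (Entrez 21809, chr12:86056743-86079041), whose product is known for its part in the involution of the gland after lactation, was at 249, 323 and 137 normalized cpm in glands 1, 2 and 3. In the tumors it ranged from 57.6 to 165 with a median of 119.7. Values overlapped, with 6 of 10 tumors below the lowest gland. The log2 fold change of -0.97 (standard error 0.32, limma adjusted p = 0.0330) fell just short of the limit of 1, so that Tgfb3 was not called. It was called when gland 3 was left out (log2 fold change -1.32, adjusted p = 0.00871) and with edgeR on the read counts (-1.01, adjusted p = 0.0156). Without gland 2 the adjusted p was 0.210. The exons of Tgfb3 are overlapped on the opposite strand by Gm37804 and Gm48008.

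Per kilobase of exon, which allows a comparison between genes within a library, Tgfb3 was the most abundant TGF-beta in every library. Of the summed level of the 3 TGF-betas, Tgfb3 made up between 69.0% and 81.2% in the tumors and 67.6%, 72.5% and 74.7% in the glands. The share of Tgfb2 was 18.7%, 19.7% and 18.8% in glands 1, 2 and 3, and ranged from 5.80% to 14.5% in the tumors with a median of 8.63%, all of them below the glands. That of Tgfb1 was 13.8%, 7.78% and 6.55% in the glands and ranged from 11.4% to 25.0% in the tumors, the highest in tumor 7. Within a library the ratio of Tgfb2 to Tgfb1 was above 1 in each of the 3 glands (1.35, 2.53 and 2.87) and in 3 of 10 tumors, where the highest ratio was 1.22 and the median 0.611. These ratios do not depend on how the libraries were scaled against each other.

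**Figure D2:**
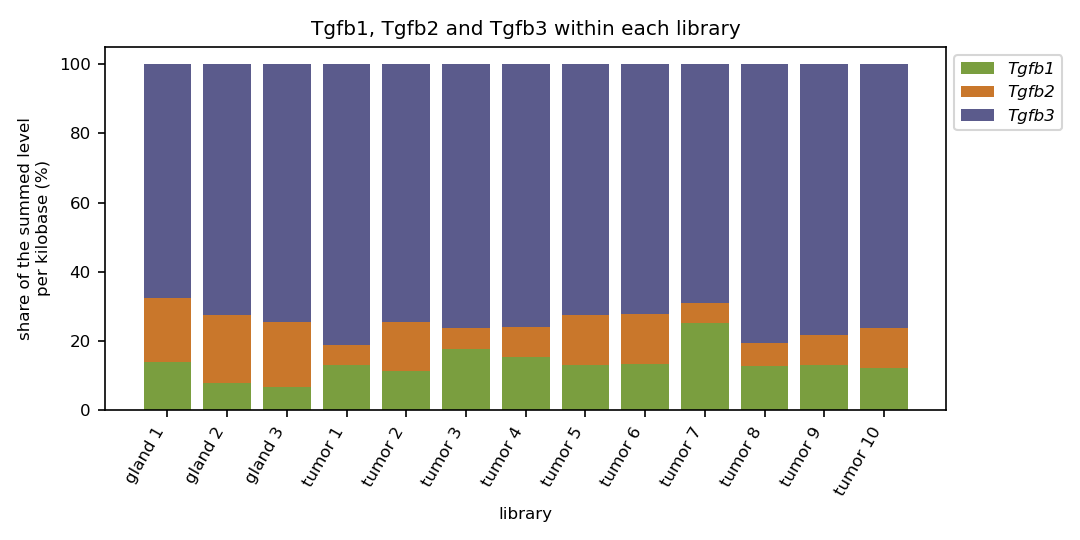
Share of Tgfb1, Tgfb2 and Tgfb3 in their summed level per kilobase of exon (vertical axis, percent) in each of the 3 glands and 10 tumors (horizontal axis). The Tgfb2 segment is between 18.7% and 19.7% in the glands and between 5.80% and 14.5% in the tumors, and Tgfb3 is the largest segment in every library.

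Among the BMPs, Bmp7 (Entrez 12162, chr2:172868012-172940321), a ligand made by many epithelia during development, had the largest fitted rise. Its level was 4.45, 7.54 and 2.56 normalized cpm in glands 1, 2 and 3 and ranged from 17.3 to 67.2 in the tumors, with a median of 32.7. All tumors were above all glands, tumor 1 being the lowest and tumor 7 the highest. The means of 35.8 ± 14.1 normalized cpm (SD, n = 10) and 4.85 ± 2.51 (SD, n = 3) gave a 7.38-fold higher level in the tumors (limma log2 fold change 2.65, standard error 0.33, adjusted p = 3.67e-05).

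Bmp4 (Entrez 12159, chr14:46383525-46390669), a ligand of mesenchyme and epithelium that acts in early mammary bud formation, was at 1.67, 0.878 and 1.95 normalized cpm in glands 1, 2 and 3. The tumors ranged from 4.49 to 23.0 with a median of 7.42, all above the glands. Tumor 7 stood apart at the top, with the next tumor at 9.78. Bmp4 was 5.81-fold higher in the tumors by the means of 8.71 ± 5.31 (SD, n = 10) and 1.499 ± 0.556 normalized cpm (SD, n = 3), and limma gave a log2 fold change of 1.85 ± 0.35 (standard error) with an adjusted p of 0.00104. Without tumor 7 it was 1.69 (adjusted p = 1.47e-04). An annotated gene on the opposite strand, Gm15217, overlaps exons of Bmp4.

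Bmp2 (Entrez 12156, chr2:133552159-133562896), the close relative of Bmp4, was at 2.27, 1.65 and 3.17 normalized cpm in glands 1, 2 and 3. In the tumors it ranged from 2.40 to 37.4 with a median of 6.35. The values of 9 of 10 tumors lay above all glands, tumor 1 was within them, and tumors 7 and 9 were well above the others. With this spread Bmp2 was not called (log2 fold change 1.46, standard error 0.57, limma adjusted p = 0.0704). It was called by DESeq2 on the read counts (2.22, adjusted p = 0.00446) and when tumor 1 was left out (1.62, limma adjusted p = 0.0370).

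Bmp3 (Entrez 110075, chr5:98854415-98884053) encodes an atypical BMP that is known as an antagonist of other BMPs and activins. It was low in the glands, at 6.47, 10.02 and 9.02 normalized cpm, and close to the limit of detection in the tumors, where it ranged from 0 to 0.910 with a median of 0.321. The 10 tumors together held 42 reads of Bmp3 and the 3 glands 419, and 5 of the tumors were at 3 reads or less. All tumors lay below all glands. The means of 0.379 ± 0.299 (SD, n = 10) and 8.50 ± 1.83 normalized cpm (SD, n = 3) differed by 22.5-fold, and the fitted log2 fold change, in the fit without a filter, was -2.79 (standard error 0.22, limma adjusted p = 3.65e-07).

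The receptor gene Bmpr1b (Entrez 12167, chr3:141837135-142169585), which encodes a type I receptor for BMPs, was at 1.93, 3.51 and 0.853 normalized cpm in glands 1, 2 and 3. The tumors ranged from 0 to 2.28 with a median of 0.119, and 7 of them were at 3 reads or less. Of the 10 tumors, 8 lay below all glands, while tumors 8 and 9, both of the same mouse, overlapped with them. In the fit without a filter the log2 fold change was -1.11 (standard error 0.36, limma adjusted p = 0.0304). This call rested on 39 reads in the tumors and 120 in the glands. It was lost with edgeR (adjusted p = 0.0550) and DESeq2 (adjusted p = 0.124), and with limma when gland 1 (adjusted p = 0.0978) or gland 2 (adjusted p = 0.192) was left out.

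Of the activin subunits, Inhbb (Entrez 16324, chr1:119415463-119422248) had the largest rise of all 10 genes on the log2(normalized cpm + 1) scale, while edgeR and DESeq2 on the read counts gave Inhba the larger one. Its level was 16.2, 25.7 and 12.9 normalized cpm in glands 1, 2 and 3 and ranged from 90.3 to 180 in the tumors, with a median of 139.7. The lowest tumor was thus far above the highest gland, and the tumors differed less among themselves than for any other of the 10 genes except Bmp3, with a range of 0.99 in log2(normalized cpm + 1) from the lowest to the highest. The means were 139 ± 34.5 (SD, n = 10) and 18.3 ± 6.64 normalized cpm (SD, n = 3), a 7.60-fold difference (limma log2 fold change 2.87, standard error 0.25, adjusted p = 1.29e-06). The small range of Bmp3, 0.93, was that of a gene near 0.

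Inhba (Entrez 16323, chr13:16004256-16031609), which encodes the other beta subunit, was nearly undetected in the glands. Gland 1 was at 0.257 normalized cpm, from 6 reads, and glands 2 and 3 were at 0. The tumors ranged from 0.353 to 5.39 with a median of 1.67, from 209 reads in all. All tumors lay above the glands as listed, with tumor 3 the highest and tumor 8, at 3 reads, the lowest. A count of 0 in gland 3 allows up to 0.366 normalized cpm, however, so that tumor 8 and gland 3 could not be separated at this depth. In the fit without a filter Inhba was called higher (log2 fold change 1.29, standard error 0.38, limma adjusted p = 0.0172). The fitted change ranged from 1.14, with libraries scaled to epithelial markers, to 4.25, with DESeq2, and the call was lost without gland 2 (1.24, limma adjusted p = 0.0653).

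**Figure D3:**
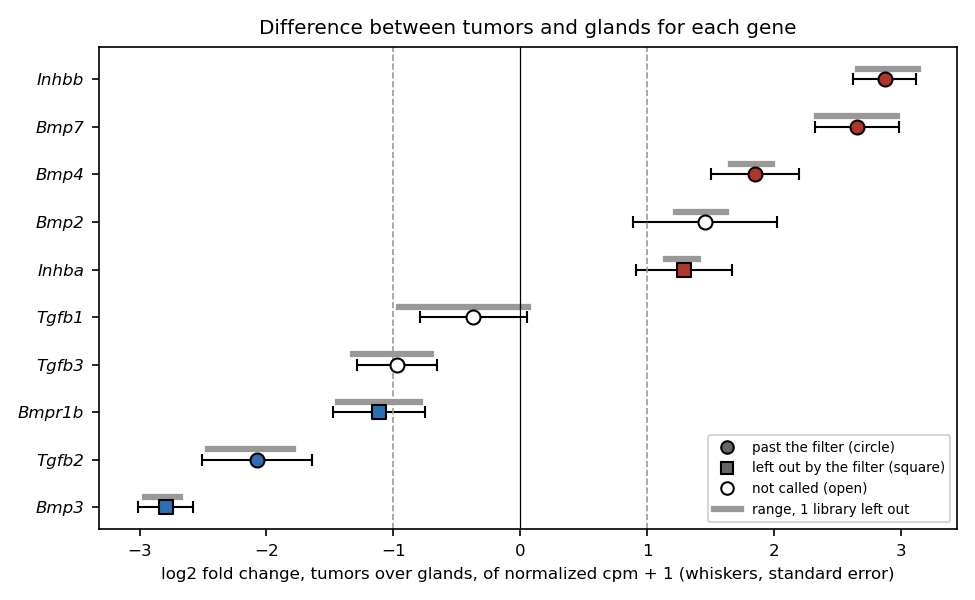
Log2 fold change of normalized cpm + 1, tumors over glands (horizontal axis), for each of the 10 genes, with whiskers for the standard error and gray bars for the range when each library is left out in turn; filled symbols are called genes, squares are genes that the filter left out, and dashed lines mark a 2-fold change. Inhbb (2.87) and Bmp7 (2.65) have the largest rises, and Bmp3 (-2.79) and Tgfb2 (-2.07) the largest falls.

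The order of the 10 genes by level per kilobase differed between the tissues. In the tumors Tgfb3 (35.1 ± 10.8 normalized cpm per kilobase, SD, n = 10) and Inhbb (32.7 ± 8.11) stood at the top and did not differ beyond their spread, with Tgfb3 the higher one in 7 of 10 tumors. Bmp7 (8.91 ± 3.52), Tgfb1 (6.85 ± 2.78), Tgfb2 (4.57 ± 2.51), Bmp4 (3.88 ± 2.36) and Bmp2 (3.06 ± 3.01) followed, and no neighbours among these differed beyond their spread. Inhba, Bmpr1b and Bmp3 were lowest, at 0.301 ± 0.233, 0.0776 ± 0.124 and 0.0512 ± 0.0405. Of all steps between neighbours in this order, only that from Inhbb to Bmp7 exceeded the SDs between libraries. Bmp2 was nevertheless above Inhba within each of the 10 tumors.

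In the glands Tgfb3 was also the highest (69.9 ± 27.7 normalized cpm per kilobase, SD, n = 3), followed by Tgfb2 (18.8 ± 7.99), Tgfb1 (9.61 ± 5.76) and then Inhbb (4.30 ± 1.56). Bmp7 (1.21 ± 0.625), Bmp3 (1.15 ± 0.248), Bmp4 (0.667 ± 0.247), Bmp2 (0.665 ± 0.215) and Bmpr1b (0.352 ± 0.224) came next. Inhba was last at 0.0134 ± 0.0232. The steps from Tgfb3 to Tgfb2, from Inhbb to Bmp7 and from Bmpr1b to Inhba exceeded the SDs between libraries, and the others did not. Within each gland, however, Tgfb2 was above Tgfb1, Tgfb1 above Inhbb and Bmp3 above Bmp4, while the order of the remaining neighbours differed between glands. Within a library, the level of Inhbb per kilobase was 0.0518, 0.0632 and 0.0750 of that of Tgfb3 in glands 1, 2 and 3. In the tumors this ratio ranged from 0.541 to 2.49 with a median of 0.886, and it was above 1 in 3 of 10 tumors, most so in tumor 9.

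The tumors differed among themselves in which ligand was high. Tumor 7 had the highest level of Bmp2, Bmp4 and Bmp7 of all tumors, tumor 3 the highest of Tgfb1 and Inhba, and tumor 6 the highest of Tgfb2 and Tgfb3. Of all genes past the filter, 12% were highest in tumor 7, 6.68% in tumor 3, 21.3% in tumor 6 and 20.1% in tumor 9. Tumor 9 was the lowest for each of the 3 TGF-betas and the highest for Inhbb, Bmp3 and Bmpr1b. It was also the tumor with the largest share of Rn45s reads, and whether that share has a part in these values was not tested. Tumor 7 had the highest summed level of basal epithelial (5179 normalized cpm), squamous (3707) and hair follicle markers (3640, beside a median of 500.2 over the tumors), whose part in its BMP levels was not tested.

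**Figure D4:**
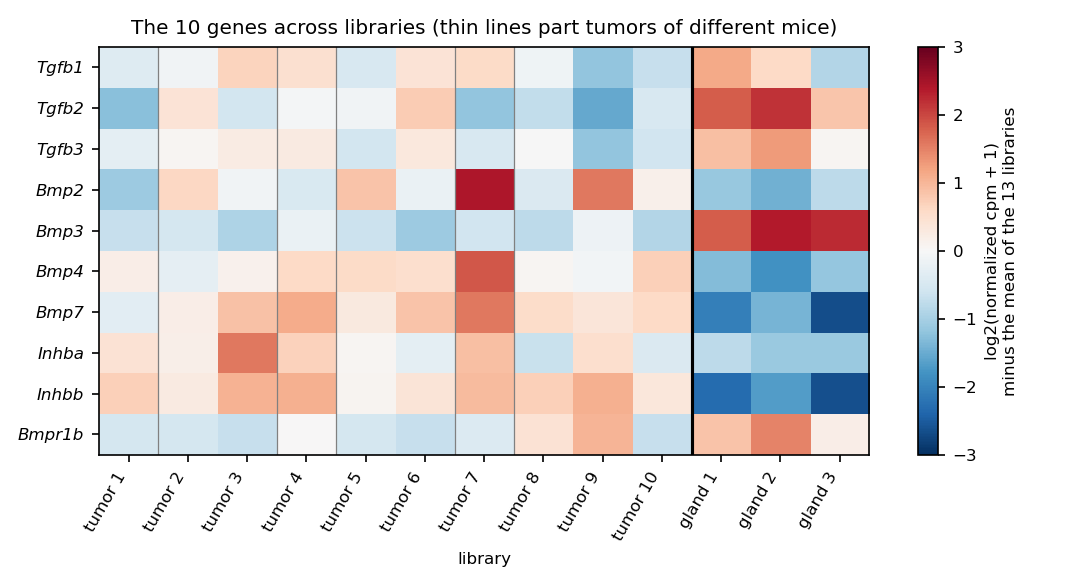
Level of each of the 10 genes (rows) in each library (columns) as log2(normalized cpm + 1) minus the mean over the 13 libraries, on a color scale from -3 (blue) to 3 (red), with thin lines between tumors of different mice and a thick line before the glands. Inhbb is above its mean in every tumor and far below it in the 3 glands, and the darkest Bmp2 tile is that of tumor 7.

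Over the 10 tumors, which come from 6 mice and share the same libraries, Tgfb1 and Tgfb3 had a Pearson r of 0.80 on the log2 scale, and Bmp4 and Bmp7 one of 0.72. Bmp3 with Bmpr1b, Tgfb1 with Bmp7, and Tgfb2 with Tgfb3 each had one of 0.67. Bmp3 and Bmpr1b held only 42 and 39 reads over the tumors, and tumor 9 was the highest for both. Tumor 7 was the highest for both Bmp4 and Bmp7 and stood far above the next tumor for Bmp4. Values without these tumors were not computed. The most negative values were those of Inhbb with Tgfb2 (-0.59) and Bmp2 with Tgfb3 (-0.59). Of all genes past the filter, the 3 whose log2 levels followed Inhbb most closely over the tumors were Slc27a3 (0.94), 2510009E07Rik (0.92) and Rab27a (0.91), none of which was called between tumors and glands. Those closest to Tgfb2 were Muc4 (0.96), Pnpla7 (0.95) and Abcb9 (0.95), of which Abcb9 was called lower (log2 fold change -1.35). These correlations describe the tumors and were not tested. Tumors of the same mouse were not alike in all of these genes: Bmp2 spanned 2.00 on the log2 scale within the mouse of tumors 8, 9 and 10, and 3.499 over all tumors, whereas Bmp4 spanned 0.07 between tumors 5 and 6.

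The other genes of the pathway were grouped into 7 lists by role, with 95 symbols in all. Of these, 74 were in the table and 52 passed the filter, and 15 were called higher and 4 lower in the tumors, which is 36.5% of those tested beside 17.2% of all genes. Smad6, Smad7 and Bambi stand in more than 1 list and were counted once. Without the filter 29 of the 74 listed genes were called (39.2%), 20 higher and 9 lower, beside 20.6% of all genes, 10.5% higher and 10.1% lower. The median log2 fold change was 0.49 over the 52 genes and 0.01 over all genes tested.

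Among the other ligands, 8 of 24 symbols were in the table and only Inha passed the filter, which it did through the tumors alone. Inha, the subunit that turns an activin beta chain into an inhibin, was higher in all tumors, at 7.38 ± 2.496 normalized cpm (SD, n = 10) against 2.15 ± 0.814 (SD, n = 3) in the glands (limma log2 fold change 1.39, adjusted p = 0.00134). Without the filter, Gdf3 (log2 fold change 1.61) and Bmp15 (1.07) were also higher, while Gdf5 (-1.08) and Gdf11 (-1.01) were lower, all of them at low levels.

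Of 16 receptors and coreceptors that were listed, 13 were tested, 1 was called, beside 17.2% of all genes, and the median log2 fold change was 0.27. This was Tgfbr2, the type II receptor of the TGF-betas, which averaged 167 ± 33.9 normalized cpm in glands (SD, n = 3) and was lower in tumors, at 78.1 ± 12.7 (SD, n = 10), with all tumors below all glands (limma log2 fold change -1.09, adjusted p = 3.25e-04). Without gland 1 the log2 fold change was -0.93 and so no longer past the limit. In the fit without a filter Acvr1c, which encodes the type I receptor ALK7 and is known from adipose tissue, was lower as well, at 0.413 ± 0.272 normalized cpm in the tumors and 15.5 ± 9.12 in the glands (log2 fold change -3.44). For the betaglycan gene Tgfbr3 the value of -0.78 (limma adjusted p = 0.0247) was short of the limit, as was that of Acvrl1 (-0.83, adjusted p = 0.0184) and, in the other direction, that of Acvr1 (0.72, adjusted p = 0.0110).

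Of the 8 Smad genes, 7 were tested, with a median log2 fold change of -0.01. Only the inhibitory Smad6, itself a target of BMP signals, was called, beside 17.2% of all genes, with a higher level in all tumors (15.4 ± 7.30 against 5.46 ± 2.73 normalized cpm, limma log2 fold change 1.34, adjusted p = 0.0154). That call was lost without gland 3 (0.91, adjusted p = 0.0887). The Smads that carry the signal ranged from -0.72 for Smad3 to 0.42 for Smad1 among those tested.

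Secreted antagonists changed in both directions. Of 12 that were listed, 5 were tested, 3 were called higher and 1 lower, beside 10.2% and 6.99% of all genes. Fst, which encodes follistatin and binds activins, had the largest rise among those tested, on the log2(normalized cpm + 1) scale. It averaged 9.07 ± 2.35 normalized cpm in glands (SD, n = 3) and 81.7 ± 32.6 in tumors (SD, n = 10) (limma log2 fold change 2.97, adjusted p = 8.36e-06). It was higher in all tumors, as was Nbl1 (1.58), while Sostdc1 (2.32), an antagonist of BMPs and Wnt ligands, was higher than the glands in 9 of 10 tumors and lost its call without gland 1 (adjusted p = 0.0649). Chrdl2, a chordin-like BMP inhibitor, was lower in all tumors, at 12.2 ± 15.4 against 172 ± 79.4 normalized cpm (log2 fold change -4.40, adjusted p = 0.00156). Without the filter Vwc2 (2.60) was also higher, by 64.8-fold in the means but with only 8 reads in the glands. Chrdl1 (-2.79) and Bmper (-1.71) were lower.

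The 12 genes for latency and activation of TGF-beta all passed the filter. Of them 2 were called, both higher, a share near the 17.2% of all genes called in either direction (10.2% higher). They were Itgb8 (log2 fold change 1.24, limma adjusted p = 0.00109), a subunit of an integrin that releases active TGF-beta, and Bmp1 (1.07, adjusted p = 3.91e-04), which despite its name is a metalloprotease and not a ligand. Without gland 3 the value of Bmp1 was 0.99, short of the limit. Short of the limit in the same way were Thbs1 (0.98, limma adjusted p = 0.00879) and Itgb6 (0.88, adjusted p = 0.0340), and in the other direction Ltbp1 (-0.83, adjusted p = 0.0486), which tethers latent TGF-beta to the matrix.

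Of 11 genes known as targets of TGF-beta, 10 were tested, 5 were called higher and 2 lower, beside 10.2% and 6.99% of all genes, and the median log2 fold change was 1.43. Pmepa1, a target that encodes a negative regulator of TGF-beta signals, was at 92.0, 80.4 and 49.6 normalized cpm in glands 1, 2 and 3 and ranged from 183 to 466 in the tumors, all above the glands (limma log2 fold change 1.90, standard error 0.28, adjusted p = 1.68e-04). Cdkn2b (2.55), Cdkn1a (2.47) and Skil (2.02) were likewise higher in all tumors, and Ccn2 (2.28) in 9 of 10. Cdkn2b passed the filter through the tumors alone. Tagln (-2.24) was lower in all tumors and Postn (-1.24) in 9 of 10. Both are also expressed by smooth muscle, myoepithelial cells or fibroblasts, and each target has other regulators. Ccn2 lost its call without gland 1 (adjusted p = 0.0985), and Postn lost it without any one of the 3 glands (adjusted p between 0.0527 and 0.121), with tumors of the same mouse averaged (0.0795) and without the mouse of tumors 8, 9 and 10 (0.0706).

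Of 10 genes known as BMP targets, 7 were tested, 4 were called higher, beside 10.2% of all genes, and none lower by limma, with a median log2 fold change of 1.18. None of these 4 calls held when libraries were scaled to epithelial markers. Id1 (1.47), Smad6 (1.34) and Id4 (1.18) were higher in all tumors and Hey1 (1.56) in 9 of 10, and without the filter Msx2 (1.74) and Msx1 (1.41) were called as well. Id1 was at 22.1, 19.1 and 28.6 normalized cpm in glands 1, 2 and 3 and between 40.7 and 172 in the tumors (limma adjusted p = 0.00319). In tumor 7, which had the highest Bmp2, Bmp4 and Bmp7 levels, 7 of the 10 BMP targets (Id1, Id3, Smad6, Bambi, Atoh8, Msx1 and Msx2) were also at their highest among the tumors. Of the 7 targets past the filter these were 4, beside 12% of all genes past it. Id4, Hey1 and Id2 were highest in tumor 9, the highest tumor for 20.1% of all genes past the filter. Counted from the highest tumor, tumor 9 ranked 2 for Bmp2, 9 for Bmp4 and 7 for Bmp7. It had the highest summed level of the 10 targets, at 912 normalized cpm, beside 851 in tumor 7. Id2 was at 229 normalized cpm in tumor 7 beside a median of 228. Id3 was at 171 normalized cpm there, beside a median of 45.7 over the tumors, and Msx2 at 29.3 beside 3.86. Msx2 also stands in the list of hair follicle markers, which were highest in the same tumor. Without gland 1, Id4 (adjusted p = 0.0533) and Hey1 (adjusted p = 0.0630) lost their calls.

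**Figure D5:**
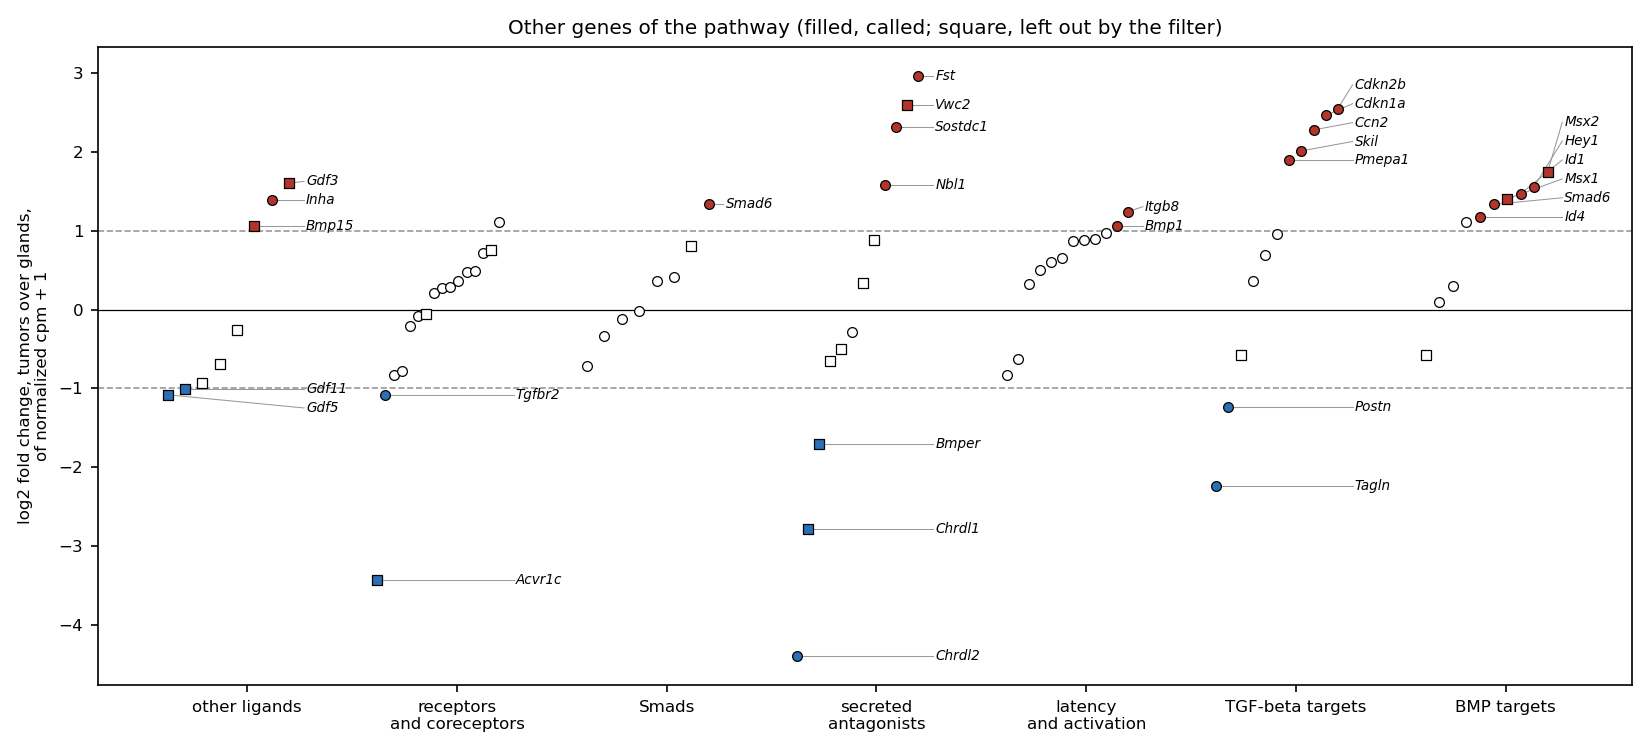
Log2 fold change of normalized cpm + 1, tumors over glands (vertical axis), for the other genes of the pathway in 7 lists (horizontal axis), with a symbol for each gene, filled where called and square where the filter left the gene out; dashed lines mark a 2-fold change. Filled symbols in the target lists are mostly above 0, those of the antagonists lie on both sides of it, and most receptors are open and near 0.

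Markers of other cell types moved between the groups together with these genes. Over all genes, 6.99% were called lower past the filter and 10.1% without it. Of 11 fibroblast markers 6 were called lower and none higher by limma (median log2 fold change -1.98), and their summed level was 408 to 1243 normalized cpm across tumors and 4040 to 4541 across glands. Most of the gland sum was collagen, with means of 2255 for Col3a1, 748 for Col1a1 and 489 for Col1a2. Dcn, Dpt, Pi16, Mfap5 and Pdgfra were not called, Pdgfra with a log2 fold change of 0.41. Adipocyte markers summed to between 95.8 and 529 in the tumors and to between 4288 and 11578 in the glands, with 4 of 4 tested genes lower and, without the filter, 10 of 10. Of 9 endothelial markers 8 were lower, with sums between 80.4 and 158 in the tumors and between 367 and 704 in the glands. No marker of these 3 lists was at 3 reads or less in all tumors. Of 11 lymphocyte markers 9 were lower without the filter, with sums between 15.0 and 151 in the tumors against 642, 32.7 and 626 in glands 1, 2 and 3. The part of these cell types in the lower levels of Tgfb2, Bmp3, Bmpr1b, Tgfbr2, Acvr1c and Chrdl2 was not tested. In bulk RNA, fewer cells of a type and less RNA per cell cannot be told apart.

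In the other direction, 6 of 8 basal epithelial markers were higher (median log2 fold change 2.21), beside 10.2% of all genes past the filter. Their sums were 1284 to 5179 normalized cpm across tumors and 315 to 773 across glands. All 9 tested squamous markers and all 7 tested hair follicle markers were higher, but 6 of the 9 and 6 of the 7 passed the filter through the tumors alone, which largely sets these counts. Of the listed squamous and hair follicle markers, 6 of 11 and 5 of 10, Krt1 and Krt25 among them, were at 3 reads or less in all glands. Hair follicle markers summed to between 125 and 3640 in the tumors and to between 9.63 and 14.9 in the glands. Of 9 macrophage markers 2 were called, both higher, a share near the 17.2% of all genes called in either direction (10.2% higher). Their sums were between 618 and 1014 in the tumors and between 431 and 499.7 in the glands. The part of these cells in the higher levels of Inhbb, Bmp7, Bmp4, Inhba, Fst and the targets was not tested.

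Of 12 general epithelial markers 4 were called higher (Krt7, Cdh3, Cldn4 and Elf3) and none lower by limma, beside 10.2% and 6.99% of all genes. Their median log2 fold change was 0.43. Their summed levels overlapped between the groups, with sums from 2154 to 3239 normalized cpm in the tumors and from 1306 to 2905 in the glands. When each library was scaled to the mean log2 level of these markers instead, the median over all genes moved from 0.01 to -0.78. Inhbb (2.08), Bmp7 (1.96), Bmp4 (1.24) and Inhba (1.14) were still called higher, and Tgfb2 (-2.88), Bmp3 (-3.40) and Bmpr1b (-1.51) lower. Under that scaling Tgfb3 (-1.79, limma adjusted p = 4.85e-06) and Tgfb1 (-1.17, adjusted p = 0.00375) were called lower as well. Pmepa1 and Fst were still called higher, whereas Inha, Smad6, Id1, Id4, Hey1, Sostdc1, Nbl1, Ccn2, Itgb8 and Bmp1 were not.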

How the data were processed

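Total RNA of flash-frozen tumors and glands was sequenced with 75 base pair paired-end reads. The authors aligned them to mm10 (Rsubread), summed reads over genes (featureCounts) and normalized the result (edgeR), and the strand setting is not stated. The deposited signal values, called normalized cpm here, are reads over a scaled library size. Multiples of 1 read made up 100% of them, within 0.01 reads, so that read counts could be recovered. Because the table holds normalized values, the main test was limma 3.58.1 (R 4.3.3) with a trend of the variance on log2(normalized cpm + 1), over all 13 libraries and with no other term. Genes at 5 or less in the majority of libraries were left out (3418 of 15213). The study's methods apply this limit before normalization. P-values were adjusted by Benjamini-Hochberg over all genes tested. The fit was tested on simulated data.

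The 10 genes and the pathway and marker lists were chosen with earlier results of these data known, and some genes were left out of the lists and are not reported here. Every one of the 10 genes, every called gene of a pathway list, and the 3 genes closest in Pearson correlation to Inhbb and Tgfb2, the called genes past the filter with the largest rise and fall among the 10, were named. Smad3, Smad1, Tgfbr3, Acvrl1, Acvr1, Ltbp1, Thbs1, Itgb6, Id2, Id3, Bambi, Atoh8 and the named markers were chosen after their values were seen. Alternatives were edgeR 4.0.16 (quasi-likelihood test) and DESeq2 1.42.0 on the recovered read counts, a pseudocount of 0.25, other scalings, no filter, tumors of the same mouse correlated or averaged, and leaving out each library. Coordinates and promoters are of RefSeq GRCm38.p6, exon lengths and overlaps of GENCODE M21. PCR duplicates could not be told from separate molecules, and intervals cover counting error only.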

Additional observations from a re-analysis of the deposited data

Results flagged for a closer look

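Of the 20 end gaps examined, the highest and the lowest tumor for each of the 10 genes, 4 exceeded the 95% critical value of Dixon's test. The gaps were taken on normalized cpm and not on the log2 scale, where gaps at the high end are smaller. Chance gives such a gap in about 1 in 20 groups of independent, normally distributed values. Some of these tumors share a mouse, and gaps on the log2 scale were not tested. Tumor 7 stood apart for Bmp2, at 37.4 normalized cpm with the next tumor at 20.5 (0.484 of the range), and for Bmp4, at 23.0 with the next at 9.78 (0.714 of the range). Tumor 3 stood apart for Inhba, at 5.39 with the next at 3.04 (0.467 of the range), which is barely past the critical value. Tumor 9 stood apart for Bmpr1b, at 2.28 with the next at 1.18 (0.483 of the range), each of them from 10 reads.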

How the results depend on the processing

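Of the 10 genes, Inhbb and Bmp3 kept their calls under every alternative run. The main count of 4 called genes was between 4 and 5 when each library was left out in turn, and 4 with tumors of the same mouse averaged or correlated, or without the mouse of tumors 8, 9 and 10. The 19 called pathway genes ranged from 14 to 21, the lowest without gland 1, and the 2029 genes called in all from 1636 to 2627 (977 to 1506 higher, 659 to 1121 lower). Without the filter 7 of the 10 genes, 29 pathway genes and 3141 genes in all were called, 1538 of them lower. With epithelial scaling 4474 genes were called, 543 higher and 3931 lower. None of the called values of the 10 genes, or of the pathway genes called past the filter, changed sign under these alternatives. For the pathway genes called only without the filter, the outcome under these alternatives is not given here.

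The labels number tumors and glands separately and give them different mice, so that the shared numbers 1 to 3 did not pair the samples. The correlations of their deviations from the group means were -0.579, 0.0447 and -0.664. No gland correlated best with the tumor of its own number. A replicate block, a term for each number, leaves every tumor numbered above 3 without a gland. Such a tumor adds nothing to the contrast, which then rests on tumors 1 to 3 and the 3 glands. With the replicate block 1 of the 7 genes past the filter (Inhbb, limma adjusted p = 0.0345), 3 pathway genes and 544 genes in all were called, 362 higher and 182 lower. Tgfb2 (adjusted p = 0.0775), Bmp4 (0.0870) and Bmp7 (0.0795) lost their calls under the replicate block alone. In the fit without a filter Bmp3 kept its call under the block (adjusted p = 0.00954), while Inhba (0.0684) and Bmpr1b (0.0668) lost theirs.

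With 3 glands of unequal depth, genes near the limit of detection (Bmp3 in tumors, Inhba in glands, Bmpr1b in both) are bounded by counts of few reads.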
